A study of Mus musculus with 8 samples.

Results

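NA3 and NA1c are names that the authors gave to noradrenergic subtypes of neurons in the mouse stellate ganglion, after clustering the transcriptomes of single cells. The comparison took every neuron of either subtype in the mice that had at least 10 neurons of both, and paired the subtypes within each mouse. These were 76 NA3 and 158 NA1c neurons, or 234 of the 1303 neurons of the series, from 3 mice. Replicate 2 had 23 NA3 and 70 NA1c neurons, replicate 4 had 14 and 24, and replicate 5 had 39 and 64. Over all mouse names, the series holds 99 NA3 and 239 NA1c neurons. Of these, 7 NA3 and 23 NA1c neurons carried mouse names that match no single sample and were left out, and the remainder came from mice with fewer than 10 neurons of at least 1 of the subtypes.

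Both subtypes came from the same C57BL6/J mice of 8 to 10 weeks of age, so that age, strain and treatment are shared. In every mouse adeno-associated viruses had been given to label neurons by their target, with GFP from the heart and tdTomato from the front paws. Left and right ganglia were combined, and the labels speak of 16 ganglia digested together, although each library bears the name of 1 mouse. The 3 mice belong to batch 2, of a kind that the sources do not name, so batches were not compared. None of the 234 neurons carried a cell barcode that also occurred in another library.

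Neurons of the stellate ganglion are postganglionic sympathetic neurons. They synthesise noradrenaline from tyrosine through tyrosine hydroxylase (Th), aromatic amino acid decarboxylase (Ddc) and dopamine beta-hydroxylase (Dbh), load it into vesicles and release it onto the heart, vessels and glands, often together with neuropeptide Y (Npy). Each cell body is wrapped by satellite glia, which express Fabp7, Apoe and Sox10 and lie so close to the neuron that they can be carried along in a dissociation. In stained mouse tissue the study marks NA3 by low Npy with high vimentin (Vim), and NA1c by low Npy with high Sctr, the receptor of the gut peptide secretin. In human ganglia it marks NA3 by low NPY with high FABP7. The comparison asks how these subtypes, drawn from 1 ganglion and 1 kind of transmitter, differ in the genes they express.

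The level of a gene is its mean over the neurons of a subtype in 1 mouse, in unique molecular identifiers (UMIs) per 10000 UMIs of the neuron, and values of the mice are given in the order replicates 2, 4 and 5. A difference is on the scale of log2(level + 0.1) and was tested with limma with a term for each mouse and p adjusted by Benjamini-Hochberg over all genes tested, and a gene with adjusted p below 0.05 was called. Subtypes were clustered on these same neurons, so an adjusted p is not independent evidence of a difference. The SE and adjusted p rest mostly on a variance shared over genes (26.3 prior against 2 residual degrees of freedom). They can be small for a gene that varied over the 3 mice, so values per mouse are to be read beside them. The fit with every neuron thinned at random to 2000 UMIs took the 5 mice with at least 5 neurons of both subtypes left, and that with the NA3 neurons at or below the median satellite glia sum of their mouse took 4 mice. Both were repeated over the same 3 mice, a choice made after the data were seen, and values of these fits are given with their number of mice.

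NA3 neurons had many more UMIs than NA1c neurons in replicate 2 and differed less in the other mice compared. The median neuron had 14025 UMIs in NA3 and 2400 in NA1c in replicate 2, 4209 and 3687.5 in replicate 4, and 4711 and 3835 in replicate 5. The mean difference of 4341 ± 6311 UMIs (SD, n = 3 mice) had 1 direction in all 3 mice (p = 0.25 by an exact permutation of signs, the smallest that 3 mice allow), and without replicate 2 it was 699. The median number of genes was 4286, 2258.5 and 2292 in NA3 and 1392, 1957.5 and 1977.5 in NA1c. At a fixed 2000 UMIs per neuron the order turned, with medians of 1134, 1239 and 1179 genes in NA3 and 1232, 1274 and 1213 in NA1c (difference of -55.7 ± 36.7 genes, SD, n = 3 mice, exact p = 0.25). The median share of mitochondrial RNA was 13.2%, 5.21% and 5.87% in NA3 and 3.95%, 1.36% and 2.66% in NA1c, which did not overlap, and in replicate 2 the NA3 median lay near the 15% above which the authors removed cells.

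NA3 neurons carried transcripts of satellite glia far above the level of NA1c neurons. The summed level of 18 satellite glia markers was 467, 241 and 307 UMIs per 10000 in NA3 and 23.7, 10.7 and 14 in NA1c, and the mean ratio over the mice was 21.4. Of the 18, at most 1 was at 0 in an NA3 profile and 2 to 8 in those of NA1c. The other noradrenergic subtypes of these mice lay with NA1c, at 9.67 to 11.9 in NA1a and 9.44 to 19.2 in NA1b. Markers of myelinating Schwann cells summed to 10.7 to 15.1 in NA3 and 2.09 to 2.79 in NA1c, and those of fibroblasts to 16.9 to 45.9 and 2.18 to 4.91. Smooth muscle and pericyte markers summed to 0.886 to 1.10 in NA3 and 0.169 to 0.704 in NA1c. Endothelial markers overlapped, at 1.18 to 2.47 in NA3 and 1.31 to 1.64 in NA1c, as did immune markers, at 0.566 to 5.13 and 0.877 to 2.17. A panel of 6 sympathetic neuron genes (Dbh, Th, Snap25, Syt1, Pcsk1n and Prph) went the other way, with a sum of 44.2 to 54.4 in NA3 and 94.6 to 99.0 in NA1c.

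The satellite glia sum varied widely within NA3, from 74.9 to 745 UMIs per 10000 in replicate 2, 22.1 to 849 in replicate 4 and 36.8 to 985 in replicate 5. In NA1c it ran up to 308, 42.5 and 71.5. Of the NA3 neurons, 19, 8 and 33 lay above the highest NA1c neuron of their mouse, and 4, 6 and 6 did not. Within NA3, Spearman's rho between the glia sum and the UMIs of a neuron was 0.453, 0.178 and 0.273, and between the glia sum and the summed noradrenaline genes -0.269, 0.0505 and -0.251, over the neurons of 1 library each. Within NA1c, rho was -0.305, -0.436 and -0.698 with the UMIs and -0.0104, 0.08 and -0.000321 with the noradrenaline genes. The sources used here name no removal of doublets and none was applied, and the part of glial RNA in the differences given here was not tested.

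**Figure D1:**
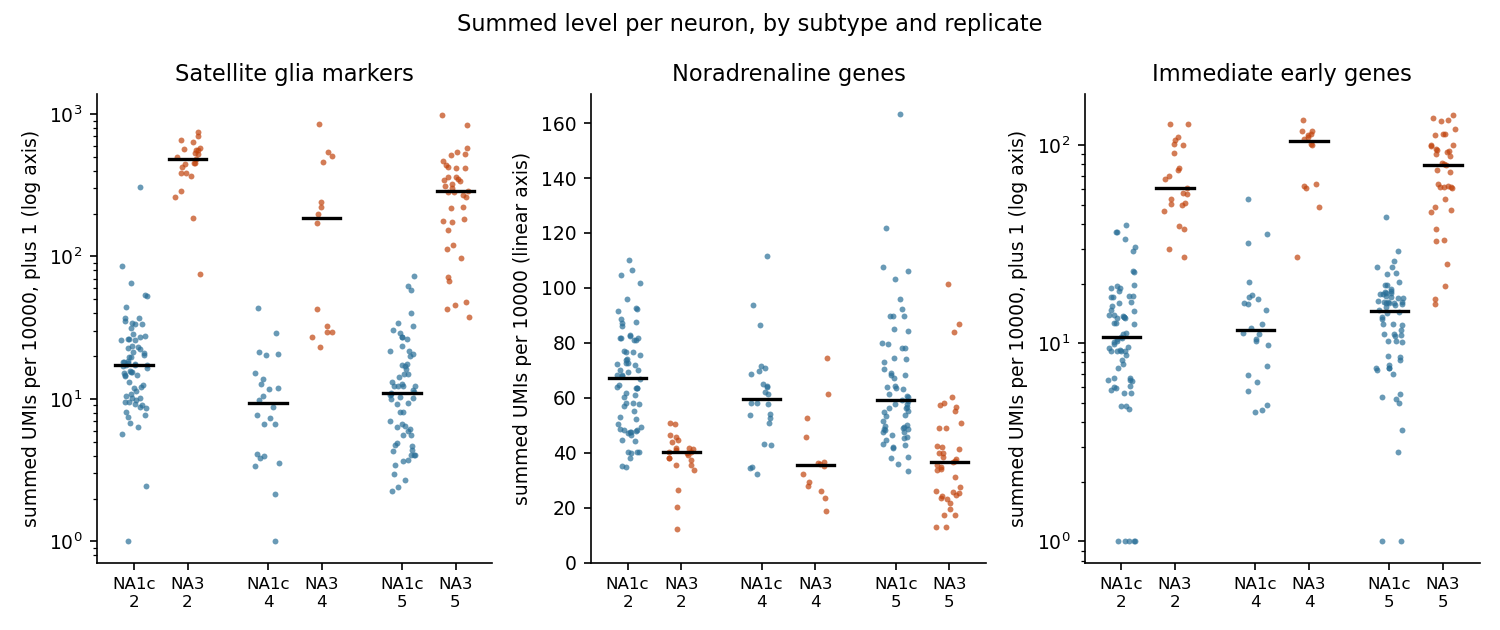
Summed level per neuron of satellite glia markers and immediate early genes (UMIs per 10000 plus 1, log axes) and of noradrenaline genes (UMIs per 10000, linear axis), by subtype and replicate, with a point per neuron and a bar at the median. The satellite glia medians of NA3 are 481, 185 and 285 against 16.3, 8.30 and 9.95 in NA1c, while some NA3 neurons of each replicate lie within the range of NA1c.

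Over the 4139 genes tested, 1278 differed between NA3 and NA1c (30.9%), of which 549 were higher in NA3 (13.3% of the genes tested) and 729 lower (17.6%). Of the calls, 1260 had the same direction in every mouse (30.4% of the genes tested). The levels of NA3 lay above those of NA1c without overlap in 748 genes (18.1%) and below in 1046 (25.3%). The differences were of unequal size in the 2 directions. Among called genes, 97 were higher by more than 3 log2 units and 0 were lower by as much, and the median difference was 1.74 for those higher and -1.31 for those lower. The median of all genes tested was -0.30, and values are to be read beside it. The balance of the directions depended on the scale. With profiles centred on their median gene, 647 genes were higher and 516 lower, and with averaged natural log values 614 and 356. Without replicate 2, 755 genes were called (412 higher and 343 lower), and without replicate 5, 687 (383 and 304).

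**Figure D2:**
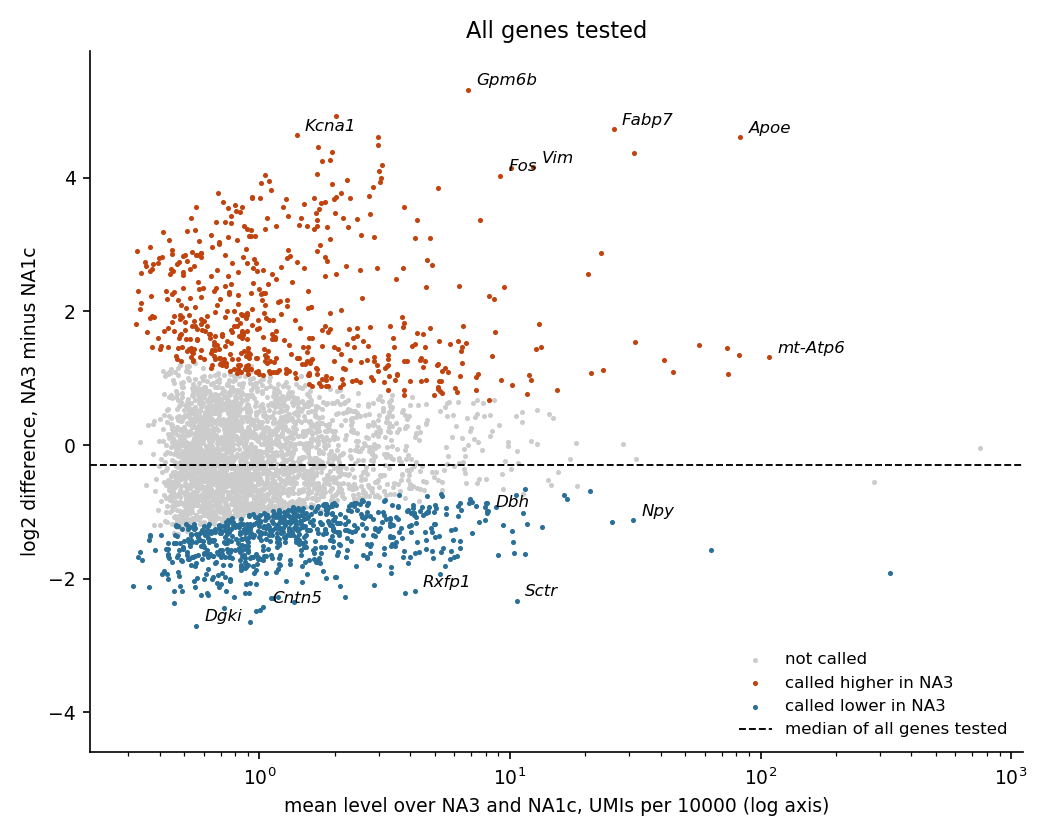
Log2 difference between NA3 and NA1c against the mean level of both (UMIs per 10000, log axis), with a point per gene tested, coloured where called at adjusted p below 0.05. The genes higher in NA3 reach 5.32 log2 units and those lower reach -2.70, and the dashed line marks the median of -0.30.

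The genes by which the study stains the subtypes, Fabp7 in human ganglia only, separated them in each mouse. Fabp7 (brain-type fatty acid binding protein, chr10:57784881-57788450 on GRCm38) stood at 69.8, 27.5 and 52.4 UMIs per 10000 in NA3 and 3.79, 0.810 and 1.44 in NA1c (log2 difference 4.73 ± 0.26 SE, adjusted p = 1.11e-13). Vim, the intermediate filament vimentin (chr2:13573927-13582826), stood at 34.7, 14 and 22.2 in NA3 and 1.32, 1.07 and 1.04 in NA1c (log2 difference 4.16 ± 0.28 SE, adjusted p = 6.56e-12). For both, the lowest NA3 mouse lay well above the highest NA1c mouse. Sctr (chr1:120006894-120063536) was the reverse, at 2.51, 3.61 and 4.36 in NA3 and 21.6, 18.6 and 13.3 in NA1c (log2 difference -2.33 ± 0.28 SE, adjusted p = 3.08e-07), again without overlap. The neurons had been clustered on these same profiles, so the differences describe the grouping.

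Npy (chr6:49822710-49829507), which the study takes as low in both subtypes, was lower in NA3 than in NA1c. Its level was 27.5, 16.4 and 15.4 in NA3 and 46.6, 34.3 and 45.6 in NA1c (log2 difference -1.13 ± 0.25 SE, adjusted p = 0.00121), and the subtypes did not overlap. The sum of the sympathetic neuron panel had a mean log2 ratio of -0.979. A smaller share of neuronal RNA in the barcode and a lower level in the neuron cannot be told apart for Npy. Against the other subtypes of these mice, NA1c with a mean of 42.2 ± 6.82 (SD, n = 3 mice) stood between NA1a at 80.3 ± 7.66 and NA1b at 9.74 ± 4.83, and NA3 at 19.8 ± 6.74 between NA1c and NA1b. Npy was detected, with at least 1 UMI, in 92.7% ± 7.15 of NA3 and 100.0% ± 0 of NA1c neurons (mean ± SD, n = 3 mice). At 2000 UMIs per neuron these shares were 79.8% ± 9.76 of NA3 and 100.0% ± 0 of NA1c neurons. Galanin (Gal), a further peptide of sympathetic neurons, stood at 5.69, 4.06 and 5.30 in NA3 and 7.46, 9.48 and 11.8 in NA1c (log2 difference -0.91 ± 0.27 SE, adjusted p = 0.0114), without overlap. Its difference was -0.76, adjusted p = 0.0884, without replicate 4 and -0.79, adjusted p = 0.156, without replicate 5. Vip, the third of 15 neuropeptide genes to pass the filter on low levels, was at 0.613, 0.982 and 0.249 against 0.188, 0.639 and 0.327 and was not called (log2 difference 0.52 ± 0.47 SE, adjusted p = 0.408).

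**Figure D3:**
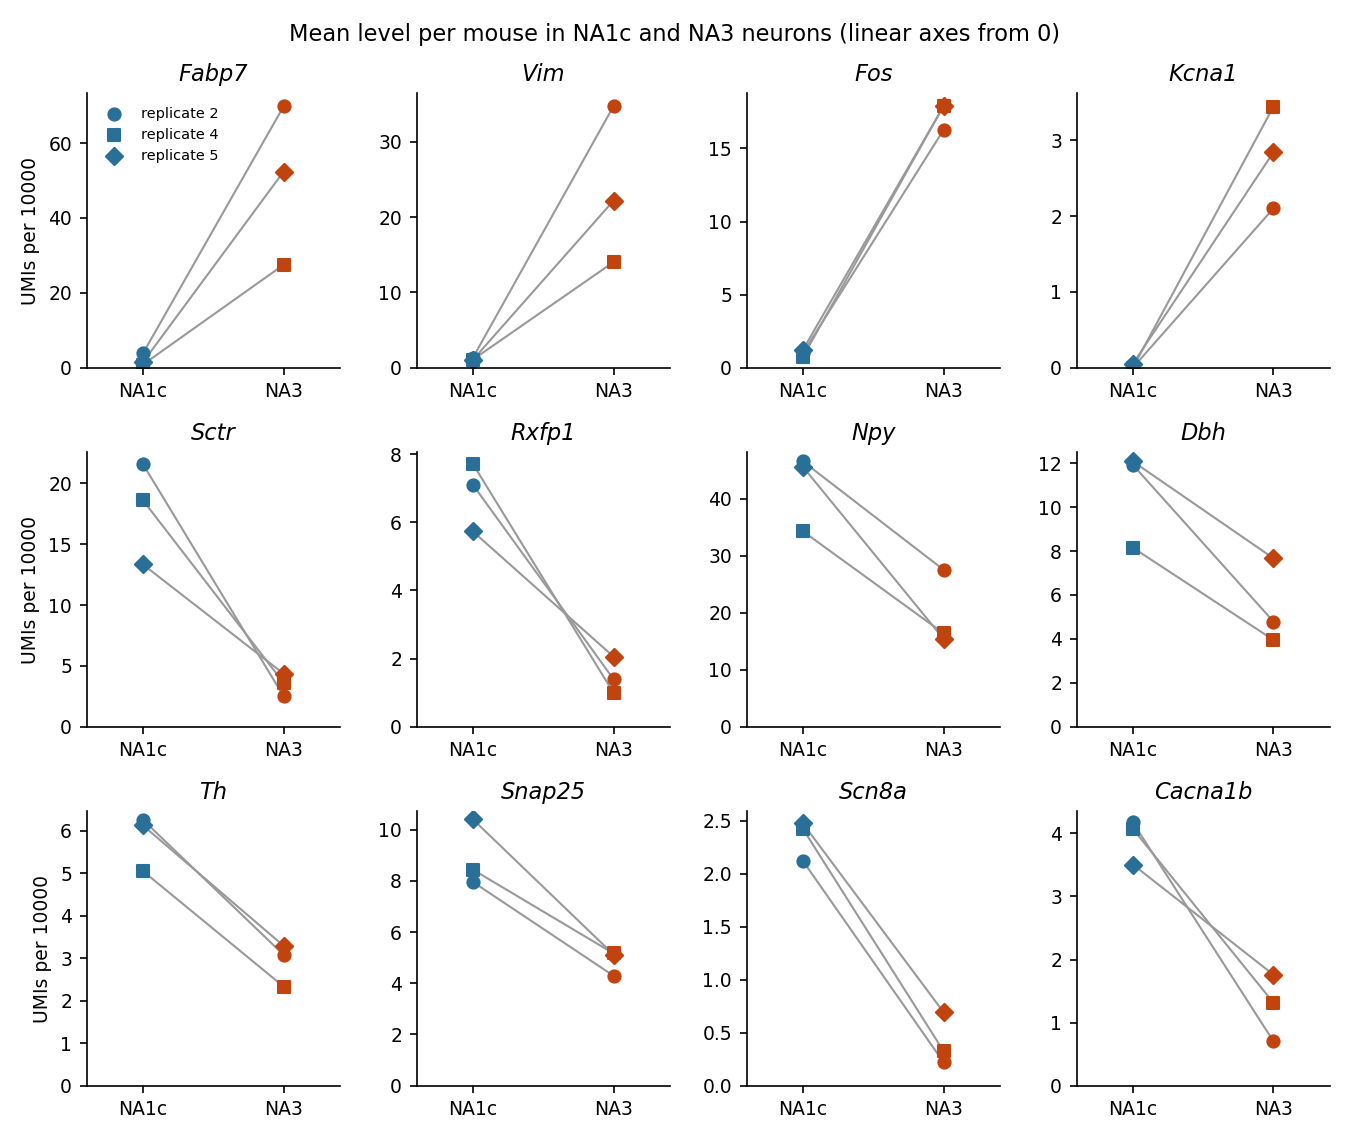
Mean level of 12 genes in NA1c and NA3 (UMIs per 10000, linear axes from 0), with a symbol per mouse and a line joining the subtypes of that mouse. Fabp7, Vim, Fos and Kcna1 rise from NA1c to NA3 in each of the 3 mice, and Sctr, Rxfp1, Npy, Dbh, Th, Snap25, Scn8a and Cacna1b fall in each.

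Among the 18 satellite glia markers, 15 passed the filter on low levels, with a median difference of 3.69. Of the 15, 14 were higher in NA3, against 13.3% of all genes tested. Of the 15, 6 passed through the NA3 profiles alone and so had to differ. With no filter, 16 of 18 were higher and 0 lower, beside 793 and 705 of 15145 of all genes. Apoe, the main apolipoprotein of glia (chr7:19696109-19699188), stood at 213, 123 and 140.4 UMIs per 10000 in NA3 and 10.8, 4.39 and 5.22 in NA1c (log2 difference 4.60 ± 0.25 SE, adjusted p = 7.47e-14). Gpm6b, a membrane proteolipid, had the largest difference of all genes tested, with 18.1, 10.6 and 11.1 against 0.689, 0 and 0.333 (log2 difference 5.32 ± 0.37 SE, adjusted p = 1.12e-11). Dbi, the acyl-CoA binding protein and precursor of a benzodiazepine receptor ligand, stood at 94.5, 34.6 and 50.2 against 3.82, 2.27 and 1.93 (log2 difference 4.36 ± 0.26 SE, adjusted p = 2.74e-13). Every NA3 mouse lay above every NA1c mouse in these genes. Glul, glutamine synthetase, was the tested marker that was not called, at 1.02, 0.807 and 1.25 against 0.554, 0.474 and 0.587 (log2 difference 0.80 ± 0.41 SE, adjusted p = 0.137).

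The remaining genes among the 12 with the largest positive differences were at or near 0 in NA1c, unlike Apoe and Dbi. Fxyd1, a regulator of the sodium pump, stood at 7.68, 4.80 and 4.83 in NA3 and 0.474, 0.0739 and 0.0664 in NA1c (log2 difference 4.49), and Ifitm3, an interferon-induced membrane protein, at 8.02, 4.31 and 4.95 against 0.423, 0 and 0.138 (log2 difference 4.61). Fxyd1 and Ifitm3 lay below 0.5 in every NA1c profile, so they passed the filter through NA3 alone and had to differ. Lpar1, a receptor of lysophosphatidic acid, Igfbp4 and Igfbp7, which bind insulin-like growth factors, had log2 differences of 4.39, 4.27 and 4.25. For those with 3 UMIs or fewer in NA1c, a fitted difference rests on the added constant. Cebpd, a transcription factor of the C/EBP family, had 297 UMIs in NA3 against 2 in NA1c, a ratio per total UMIs of 165 with an exact 95% counting interval of 45.4 to 1373. The ADP-ribosyltransferase family gene Art3 had 199 UMIs in NA3 against 3 in NA1c, a ratio per total UMIs of 73.9 with an exact 95% counting interval of 24.9 to 362. Kcna1, the potassium channel subunit Kv1.1, had 122 UMIs in NA3 against 1 in NA1c, a ratio per total UMIs of 136 with an exact 95% counting interval of 23.9 to 5414. These intervals cover counting error only.

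Transcription factors of the Notch, Id and Sox families that mark glia and their precursors followed the glial markers. Of 17, 7 passed the filter, 6 of these through NA3 alone, and 6 were higher in NA3 (median 3.26), against 13.3% of all genes tested. With no filter 10 of 17 were higher and 0 lower, beside 793 and 705 of 15145 of all genes. Id3, an inhibitor of helix-loop-helix factors, stood at 8.30, 5.32 and 4.25 in NA3 and 0.266, 0.279 and 0.134 in NA1c (log2 difference 4.19 ± 0.36 SE, adjusted p = 8.69e-10), and Hes1, the Notch target, at 3.15, 2.91 and 3.33 against 0.110, 0.0804 and 0.310 (log2 difference 3.69 ± 0.41 SE, adjusted p = 9.25e-08). Zeb2 stood at 3.56, 3.35 and 3.21 against 0.321, 0.0478 and 0.663 (log2 difference 3.26 ± 0.42 SE, adjusted p = 9.96e-07), and at 2000 UMIs per neuron its difference was 2.60, adjusted p = 6.91e-04, in the same 3 mice and 1.66, adjusted p = 0.0871, over 5 mice. Every NA3 mouse exceeded every NA1c mouse in these genes. Hey2 was not called, at 0.855, 0.507 and 0.879 against 0.167, 0.395 and 0.270.

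Some genes of myelin, fibroblasts and matrix were higher in NA3 as well. With no filter, where 793 of 15145 genes were higher, 4 of 9 Schwann cell markers, 6 of 10 fibroblast markers and 11 of 18 basement membrane and matrix genes were higher in NA3, and 0 of each were lower. Pmp22, a myelin protein, stood at 4.55, 3.41 and 4.12 in NA3 and 1.20, 1.25 and 1.69 in NA1c (log2 difference 1.48 ± 0.31 SE, adjusted p = 6.58e-04), while in the NA3 neurons with the lower satellite glia sums its difference was 0.74, adjusted p = 0.279, in the same 3 mice and 0.69, adjusted p = 0.252, over 4 mice. Dcn, the proteoglycan decorin, stood at 6.64, 26.3 and 8.89 against 2.41, 0.834 and 0.523 (log2 difference 3.37 ± 0.39 SE, adjusted p = 1.80e-07) and was highest in replicate 4, the mouse with the lowest satellite glia sum in NA3. The metalloproteinase inhibitor Timp3 stood at 6.31, 3.14 and 5.95 against 0.474, 1.17 and 0.587 (log2 difference 2.66 ± 0.37 SE, adjusted p = 2.90e-06). The exception among the 8 matrix genes tested was Col5a3, at 4.03, 16.6 and 7.32 against 12.7, 14.3 and 12.7 (log2 difference -0.73 ± 0.29 SE, adjusted p = 0.0525), which was highest in NA1b, at 33.7 ± 6.26 (SD, n = 3 mice), and without replicate 4 was -1.21, adjusted p = 0.00493.

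Immediate early genes, which are transcribed within minutes of activity, injury or enzymatic dissociation, were higher in NA3 almost as a group. Of 17 genes, 14 passed the filter and 13 of these were higher in NA3, against 13.3% of all genes tested, with a median of 2.01 against -0.30. Of the 14, 2 passed through NA3 alone. With no filter, 15 of 17 were higher and 0 lower, beside 793 and 705 of 15145 of all genes. In NA3 neurons with the lower satellite glia sums, 11 of 13 were higher in the same 3 mice and 10 of 12 over 4 mice. Over all genes, 218 of 4094 and 252 of 3941 were higher in these fits. At 2000 UMIs per neuron, 10 of 13 were higher in the same 3 mice and 8 of 14 over 5 mice, beside 349 of 3847 and 337 of 3904. Their summed level was 69.1, 90.2 and 75.7 UMIs per 10000 in NA3 and 11.8, 13.9 and 13 in NA1c. Across the neurons of NA3 in 1 library, Spearman's rho between the satellite glia sum and the immediate early sum was -0.000988 in replicate 2 (23 neurons), -0.0154 in replicate 4 (14) and 0.563 in replicate 5 (39). Across those of NA1c it was -0.0175, 0.337 and 0.273. The part of glial RNA in the immediate early sum was not tested.

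Fos, the partner of Jun in the AP-1 factor (chr12:85473890-85477273), stood at 16.3, 17.9 and 17.9 in NA3 and 1.00, 0.732 and 1.22 in NA1c (log2 difference 4.03 ± 0.28 SE, adjusted p = 1.12e-11). A UMI of Fos was found in 92.7% ± 7.15 of NA3 and 27.1% ± 10.4 of NA1c neurons (mean ± SD, n = 3 mice), and at 2000 UMIs per neuron in 94.0% ± 6.88 of NA3 and 16.4% ± 4.31 of NA1c neurons. Jun stood at 17.1, 16.2 and 14.4 against 3.27, 2.91 and 2.86 (log2 difference 2.36 ± 0.26 SE, adjusted p = 7.50e-08), Junb at 6.52, 9.06 and 5.56 against 0.571, 0.328 and 0.637 (log2 difference 3.56 ± 0.34 SE, adjusted p = 7.19e-09), and Atf3, a factor induced by nerve injury, at 4.71, 3.64 and 7.34 against 0.682, 0.389 and 0.442 (log2 difference 3.11 ± 0.34 SE, adjusted p = 8.43e-08). Egr1, a zinc finger factor, stood at 5.27, 12.1 and 7.14 against 0.670, 2.01 and 0.829 (log2 difference 2.76 ± 0.30 SE, adjusted p = 4.64e-08). None of these 5 genes overlapped between the subtypes. The subtypes overlapped in Fosl2, the member tested that was not called, at 0.165, 0.712 and 0.717 against 0.194, 0.0672 and 0.635. The means of Fos in NA1a (1.20 ± 0.394) and NA1b (0.709 ± 0.172) lay with that of NA1c (0.984 ± 0.242, SD, n = 3 mice).

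Genes of this group are known to respond to cAMP through promoter elements. Their promoters were read from RefSeq (GRCm38.p6), as the 250 bases before the start of transcription. Of the 14 tested genes, 12 had an entry. The core of the cAMP response element, TGACG, searched on both strands, lay in 7 of 12 (Atf3, Btg2, Fos, Fosb, Junb, Klf4 and Nr4a1), and in 17.8% of 32851 promoters of this length. The full palindrome TGACGTCA, which contains the core on each strand, lay in 1 of 12 (Btg2) and in 1.55% of all. The promoters of Fos and Atf3, which are among the named genes, and that of Btg2, chosen after its match was seen, show the arrangement, with capitals marking the core or the palindrome. Each is written 5′ to 3′ on the strand of the gene, from chr12:85473640-85473889 (plus strand) for Fos, chr1:191183334-191183583 (minus strand) for Atf3 and chr1:134079156-134079405 (minus strand) for Btg2. A match describes these letters and is not evidence of binding. The 32851 promoters were not limited to genes tested here or matched in base content, and a part of cAMP in these levels was not tested.
Fos: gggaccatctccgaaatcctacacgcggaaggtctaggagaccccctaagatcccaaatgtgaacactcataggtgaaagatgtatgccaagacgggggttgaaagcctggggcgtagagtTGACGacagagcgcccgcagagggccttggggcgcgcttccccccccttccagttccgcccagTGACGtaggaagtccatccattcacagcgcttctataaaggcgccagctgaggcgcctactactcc
Atf3: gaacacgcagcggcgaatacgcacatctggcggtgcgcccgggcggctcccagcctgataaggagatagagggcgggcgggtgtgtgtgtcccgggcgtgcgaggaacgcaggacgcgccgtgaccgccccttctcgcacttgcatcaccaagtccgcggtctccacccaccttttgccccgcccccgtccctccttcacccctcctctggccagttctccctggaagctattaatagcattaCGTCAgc
Btg2: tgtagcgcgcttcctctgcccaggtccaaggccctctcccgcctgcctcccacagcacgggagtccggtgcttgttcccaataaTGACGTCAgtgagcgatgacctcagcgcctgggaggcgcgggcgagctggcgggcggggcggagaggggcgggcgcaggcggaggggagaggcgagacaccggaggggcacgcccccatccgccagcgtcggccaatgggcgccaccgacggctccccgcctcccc

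Heat shock genes were called in both directions. Of 16, each of which passed the filter, 6 were higher in NA3 and 2 lower, against 13.3% and 17.6% of all genes tested (median 0.50). Of the 6, 1 passed through NA3 alone. The inducible Hsp70 genes Hspa1a and Hspa1b are near-identical copies whose reads cannot be fully told apart. Hspa1a stood at 39.2, 39.6 and 26.3 in NA3 and 6.21, 6.39 and 4.89 in NA1c (log2 difference 2.55 ± 0.25 SE, adjusted p = 8.25e-09), and Hspa1b at 11.1, 9.31 and 9.92 against 2.69, 2.85 and 3.08 (log2 difference 1.78 ± 0.27 SE, adjusted p = 1.13e-05). Cryab, a small chaperone also made by glia, was that gene and stood at 8.61, 3.65 and 3.26 against 0.490, 0.117 and 0.265 (log2 difference 3.73 ± 0.37 SE, adjusted p = 1.06e-08). The constitutive Hspa8 did not separate the subtypes, at 24.4, 13.9 and 17.7 against 17.8, 17.1 and 18.7 (log2 difference 0.02 ± 0.25 SE), and neither did Hsp90ab1, at 27.7, 29.6 and 30.5 against 32.0, 41.3 and 29.4 (-0.21 ± 0.25 SE). Hspb8 was lower, at 0.784, 0.711 and 1.17 against 1.33, 2.09 and 2.58 (log2 difference -1.07 ± 0.36 SE, adjusted p = 0.0232), with -0.89, adjusted p = 0.0787, without replicate 4 and -1.07, adjusted p = 0.177, without replicate 5. Of 16 calcium-binding and S100 proteins, 11 passed the filter, with 3 higher, 1 of them through NA3 alone, and 1 lower, beside the same 13.3% and 17.6%. S100a6, which glia also make, stood at 17.5, 10.4 and 12.3 against 4.38, 3.06 and 4.77 (log2 difference 1.69 ± 0.26 SE, adjusted p = 1.85e-05), and the neuronal calcium sensor Ncald at 2.11, 2.33 and 3.28 against 4.12, 6.67 and 4.78 (log2 difference -0.98 ± 0.29 SE, adjusted p = 0.0120), with -0.73, adjusted p = 0.114, without replicate 4 and -1.21, adjusted p = 0.0619, without replicate 5.

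Genes of noradrenaline synthesis, storage and uptake were lower in NA3 but remained well expressed. Of 12, 10 passed the filter, none through 1 subtype alone, and 6 were lower and 0 higher, against 17.6% and 13.3% of all genes tested, with a median of -0.73. Their summed level was 38.5, 38.3 and 39.4 UMIs per 10000 in NA3 and 66.8, 60.9 and 65.0 in NA1c. Dbh stood at 4.79, 3.95 and 7.67 in NA3 and 11.9, 8.16 and 12.1 in NA1c (log2 difference -0.99 ± 0.26 SE, adjusted p = 0.00508), Th at 3.08, 2.34 and 3.29 against 6.26, 5.05 and 6.13 (log2 difference -0.99 ± 0.28 SE, adjusted p = 0.00826), and Slc18a2, the vesicular monoamine transporter, at 5.32, 5.87 and 5.17 against 9.77, 11.7 and 11.2 (log2 difference -0.98 ± 0.26 SE, adjusted p = 0.00483). The subtypes did not overlap in these 3 genes. The noradrenaline reuptake transporter Slc6a2, at 7.34, 8.80 and 10.8 against 14.5, 14.2 and 13.4, was near the threshold (log2 difference -0.66 ± 0.25 SE, adjusted p = 0.0478) and was not called when any of the 3 mice was left out (-0.50, adjusted p = 0.203, without replicate 2, -0.65, adjusted p = 0.153, without replicate 4 and -0.83, adjusted p = 0.0907, without replicate 5).

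The joint fit of 4 subtypes called 2 of 12 noradrenaline genes higher, and the fit with a minimum of 5 neurons 1 of 10. Over all genes, 719 of 5754 and 626 of 3931 were higher in these fits. The count of lower noradrenaline genes was 1 of 10 with averaged natural log values, 5 of 10 without replicate 2, 5 of 11 without replicate 4 and 1 of 10 without replicate 5. Over all genes, 356 of 4139, 343 of 4453, 919 of 4293 and 304 of 4463 were lower in these fits. Without replicate 5, Th was -1.04, adjusted p = 0.0902 and Slc18a2 -0.92, adjusted p = 0.0817. When the deposited natural log values were averaged over neurons before the fit with limma, Dbh and Th were not called (adjusted p = 0.0867 and 0.103). The share of neurons with a UMI was alike at full depth and lower in NA3 at a fixed depth. A UMI of Dbh was found in 91.8% ± 7.37 of NA3 and 90.5% ± 5.52 of NA1c neurons and one of Th in 80.6% ± 9.91 of NA3 and 80.4% ± 8.82 of NA1c neurons (mean ± SD, n = 3 mice), and at 2000 UMIs per neuron Dbh was found in 57.1% ± 10.1 of NA3 and 78.7% ± 11.1 of NA1c neurons and Th in 41.4% ± 7.48 of NA3 and 64.9% ± 7.51 of NA1c neurons.

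Transcription factors of the sympathetic lineage leaned the same way, with a smaller share called. Of 18, 14 passed the filter, and all 14 differences were below 0 (median -0.73, against -0.30 for all genes). Of the 14, 4 were called lower, against 17.6% of all genes tested. Gata2 stood at 1.14, 1.33 and 1.31 in NA3 and 2.59, 4.56 and 2.77 in NA1c (log2 difference -1.29 ± 0.32 SE, adjusted p = 0.00335) and Tcf4 at 2.11, 3.68 and 2.65 against 6.94, 8.11 and 5.81 (log2 difference -1.30 ± 0.28 SE, adjusted p = 8.40e-04), without overlap. Tfap2b stood at 0.529, 0.850 and 0.628 against 2.04, 1.76 and 1.34 (log2 difference -1.24 ± 0.38 SE, adjusted p = 0.0138), with -0.98, adjusted p = 0.126, without replicate 2 and -1.37, adjusted p = 0.0883, without replicate 5. Sox11 stood at 0.0975, 0.754 and 0.126 against 0.856, 1.09 and 0.547 (log2 difference -1.42 ± 0.48 SE, adjusted p = 0.0239) and was not called without replicate 2 or 5 (-0.996, adjusted p = 0.265 and -1.38, adjusted p = 0.142). Hand2, a determinant of the noradrenergic type, was not called, at 3.29, 2.24 and 3.51 against 4.96, 3.13 and 6.62 (log2 difference -0.65 ± 0.28 SE, adjusted p = 0.0802).

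Few receptors of peptides and amines passed the filter. Those that did, the NA1c marker Sctr among them, had the lowest median of the lists with more than 1 gene. Of 27 genes for receptors of peptides and amines, 25 were in the table and 3 passed the filter. These 3 were lower in NA3, with a median of -2.18, against 17.6% of all genes tested that were lower. Besides Sctr, given above, Rxfp1, the receptor of the hormone relaxin (chr3:79641611-79737880), stood at 1.39, 0.993 and 2.06 in NA3 and 7.10, 7.71 and 5.73 in NA1c (log2 difference -2.18 ± 0.31 SE, adjusted p = 4.35e-06). Adcyap1r1, the receptor of the neuropeptide PACAP, which preganglionic fibres release onto these neurons, stood at 0.542, 0.168 and 1.22 against 0.891, 2.74 and 1.63 (log2 difference -1.47 ± 0.46 SE, adjusted p = 0.0172), and the mice of the subtypes overlapped. Its difference was -0.51, adjusted p = 0.364, without replicate 4. Neither Sctr nor Rxfp1 was lowest in NA3 among the noradrenergic subtypes of these mice. Sctr had a mean of 3.49 ± 0.928 in NA3, 8.07 ± 2.14 in NA1a and 0.852 ± 0.803 in NA1b, and Rxfp1 1.48 ± 0.537, 6.12 ± 0.476 and 0.664 ± 0.190 (SD, n = 3 mice).

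The nicotinic receptor subunits Chrna3 and Chrnb4, which receive the preganglionic signal, were not called. Chrna3 stood at 1.12, 0.535 and 1.37 against 1.89, 1.63 and 2.04 (log2 difference -0.90 ± 0.36 SE, adjusted p = 0.0569) and Chrnb4 at 0.570, 0.880 and 0.485 against 1.13, 0.923 and 1.21 (log2 difference -0.70 ± 0.41 SE, adjusted p = 0.192), both below NA1c in each mouse. Of 13 acetylcholine receptor genes, 10 were in the table and 3 passed the filter, with 0 called by limma. Of the 3, 2 had an unadjusted p below 0.05 by limma and 2 were called lower by voom on summed UMIs. Over the 4139 genes tested, 1749 had such a p and voom called 921 lower. Of 7 receptors of neurotrophic factors and cytokines that passed the filter, 2 through NA3 alone, 3 were higher and 1 lower, beside 13.3% and 17.6% of all genes tested. Ntrk2, the receptor of BDNF, which glia also express, was higher, at 3.43, 1.81 and 2.76 against 0.237, 0.281 and 0.501 (log2 difference 2.65 ± 0.39 SE, adjusted p = 9.25e-06), as was Il6st, the signalling subunit of the LIF and IL-6 receptors, which passed the filter through NA3 alone, at 0.972, 0.729 and 1.07 against 0.237, 0 and 0.321 (log2 difference 2.06 ± 0.48 SE, adjusted p = 0.00185). Ngfr was not called, at 2.69, 2.03 and 1.18 against 4.61, 1.98 and 3.35 (log2 difference -0.72 ± 0.32 SE, adjusted p = 0.0896).

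Genes of voltage-gated channels were called in both directions, with most of the calls lower in NA3. Of 13 sodium channel genes, 7 passed the filter, with a median of -1.17. Of the 7, 6 were lower, 1 of them through NA1c alone, and 1 higher, against 17.6% and 13.3% of all genes tested. With no filter, where 705 of 15145 genes were lower, 5 of 12 were lower and 1 higher. Scn8a, the subunit Nav1.6 of nodes and axon initial segments, stood at 0.221, 0.327 and 0.694 in NA3 and 2.12, 2.42 and 2.48 in NA1c (log2 difference -2.35 ± 0.39 SE, adjusted p = 4.79e-05), without overlap. Scn9a, the subunit Nav1.7, stood at 1.08, 2.91 and 3.14 against 3.36, 3.62 and 4.90 (log2 difference -0.83 ± 0.31 SE, adjusted p = 0.0425) and was -0.47, adjusted p = 0.328, without replicate 2 and -0.93, adjusted p = 0.184, without replicate 5. The lower sodium channel genes numbered 2 of 7 without replicate 2 and 2 of 8 without replicate 5. Over all genes, 343 of 4453 and 304 of 4463 were lower in these fits. Scn7a, a sodium channel that glia express, went the other way, at 3.42, 2.68 and 3.12 against 0.467, 0.239 and 0.290 (log2 difference 2.91 ± 0.37 SE, adjusted p = 9.96e-07), and passed the filter through NA3 alone.

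Potassium channels were split in a like way, with 3 higher and 4 lower of 10 that passed the filter, out of 29, beside 13.3% and 17.6% of all genes tested. The counts were likewise 3 and 4 of 27 with no filter, beside 793 and 705 of 15145. Of the 4 lower, 1 passed through NA1c alone. Kcna1, Kcna2 and Kcna6, subunits of Kv1 channels, were higher and passed through NA3 alone. Kcna1 stood at 2.1, 3.44 and 2.84 UMIs per 10000 in NA3 and 0, 0 and 0.0505 in NA1c, and Kcna2 at 1.73, 1.89 and 1.61 against 0.288, 0.0478 and 0.274 (log2 difference 2.73 ± 0.45 SE, adjusted p = 4.48e-05), and at 2000 UMIs per neuron the difference of Kcna2 was 2.61, adjusted p = 0.00534, in the same 3 mice and 1.26, adjusted p = 0.251, over 5 mice. Kcna6 stood at 1.8, 1.91 and 1.78 against 0.416, 0.392 and 0.479 (log2 difference 1.87 ± 0.39 SE, adjusted p = 6.36e-04), and at 2000 UMIs per neuron was 1.44, adjusted p = 0.0619, in the same 3 mice. In the NA3 neurons with the lower satellite glia sums, Kcna6 was 1.92, adjusted p = 0.00618, in the same 3 mice and 1.10, adjusted p = 0.181, over 4 mice. Kcnq3, a subunit of the M-type channel that muscarinic receptors close, was lower, at 1.22, 1.74 and 1.62 against 2.76, 3.67 and 4.41 (log2 difference -1.18 ± 0.31 SE, adjusted p = 0.00468), with -1.08, adjusted p = 0.119, without replicate 5. Kcnt1, the gene by which the study marks NA1b, was not called, at 0.543, 1.82 and 1.19 against 3.52, 1.83 and 1.67, and was highest in replicate 2 of NA1c.

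All 7 calcium channel genes that passed the filter, of 14 in the table, had differences below 0, and 5 were called lower, against 17.6% of all genes tested (median -1.33). Of the 7, 1 passed through NA1c alone, and with no filter 4 of 13 were lower, beside 705 of 15145 of all genes. Cacna1b, the N-type subunit that triggers transmitter release in sympathetic terminals, stood at 0.702, 1.31 and 1.76 in NA3 and 4.17, 4.07 and 3.51 in NA1c (log2 difference -1.64 ± 0.33 SE, adjusted p = 4.32e-04), and Cacna1a, the P/Q-type subunit, at 0.623, 2.14 and 1.53 against 6.04, 5.87 and 3.82 (log2 difference -1.92 ± 0.34 SE, adjusted p = 8.99e-05), both without overlap. The count was 3 of 7 without replicate 2 and 2 of 7 without replicate 5, beside 343 of 4453 and 304 of 4463 of all genes. Adcy3, an adenylyl cyclase, stood at 0.0541, 0 and 0.242 against 1.07, 0.730 and 0.649 (log2 difference -2.37 ± 0.51 SE, adjusted p = 8.43e-04), and passed the filter through NA1c alone. Its difference was -2.09, adjusted p = 0.0515, without replicate 2 and -1.01, adjusted p = 0.335, at 2000 UMIs per neuron over 5 mice. The sympathetic neuron panel summed to 0.510 of its NA1c level in NA3 on average. A smaller share of neuronal RNA in the barcode and a lower level in the neuron cannot be told apart for the neuronal genes given here.

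The machinery of vesicle release was lower in NA3 over much of its list. Of 24 genes, 22 passed the filter, 2 through NA1c alone, and 14 were lower and 0 higher, against 17.6% and 13.3% of all genes tested (median -0.96). The count was 11 of 22 without replicate 2, 15 of 22 without replicate 4 and 6 of 22 without replicate 5. Over all genes, 343 of 4453, 919 of 4293 and 304 of 4463 were lower in these fits. Syn2, which tethers vesicles, stood at 4.85, 5.29 and 3.86 in NA3 and 10.5, 11.5 and 9.24 in NA1c (log2 difference -1.15 ± 0.26 SE, adjusted p = 0.00134), Cplx2, a clamp of the fusion complex, at 2.24, 4.51 and 2.90 against 10.8, 8.55 and 6.52 (log2 difference -1.42 ± 0.29 SE, adjusted p = 4.73e-04), and Cadps, which primes dense-core vesicles, at 0.559, 2.56 and 1.87 against 4.06, 4.33 and 5.47 (log2 difference -1.63 ± 0.34 SE, adjusted p = 5.55e-04). The subtypes did not overlap in these genes. Snap25 stood at 4.29, 5.16 and 5.12 against 7.95, 8.43 and 10.4 (log2 difference -0.86 ± 0.26 SE, adjusted p = 0.0135), and was -0.79, adjusted p = 0.150, without replicate 5. Sncg, gamma-synuclein, was not called, at 15.6, 13.4 and 11.3 against 17.2, 16.1 and 19.8 (log2 difference -0.40 ± 0.25 SE, adjusted p = 0.218).

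Within granins and prohormone enzymes, 10 of 11 genes passed the filter, 2 were lower and 1 was higher, shares close to the 17.6% and 13.3% of all genes tested. Pcsk1n, an inhibitor of prohormone convertase, stood at 13.7, 21.2 and 13.4 in NA3 and 36.2, 37.3 and 31.7 in NA1c (log2 difference -1.15 ± 0.25 SE, adjusted p = 8.43e-04) and Chga, chromogranin A, at 2.18, 1.62 and 2.30 against 3.80, 5.02 and 5.67 (log2 difference -1.20 ± 0.30 SE, adjusted p = 0.00294), with -1.17, adjusted p = 0.0814, without replicate 5. Cpe, carboxypeptidase E, was higher, at 5.21, 2.65 and 3.55 against 2.29, 2.08 and 1.25 (log2 difference 0.97 ± 0.31 SE, adjusted p = 0.0188), but was not called without replicate 2 (0.89, adjusted p = 0.0720) or replicate 5 (0.75, adjusted p = 0.259). Of 16 cytoskeletal genes of neurons, 7 were lower and 0 higher (median -0.73), against 17.6% and 13.3% of all genes tested. Without replicate 5, 1 was lower, beside 304 of 4463 of all genes. Mapt, the microtubule protein tau, stood at 2.65, 2.29 and 2.90 against 11.8, 7.42 and 5.38 (log2 difference -1.55 ± 0.29 SE, adjusted p = 1.88e-04), without overlap, while the abundant Stmn2 was not called, at 17.0, 14.6 and 12.3 against 22.0, 20.0 and 24.7 (log2 difference -0.61 ± 0.25 SE, adjusted p = 0.0634).

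Adhesion and guidance genes gave 7 lower and 0 higher of 16 that passed the filter, out of 25 (median -0.80), against 17.6% and 13.3% of all genes tested. Of the 16, 2 passed through NA1c alone, Cntn5 among them. With no filter 8 of 23 were lower and 0 higher, beside 705 and 793 of 15145 of all genes. Cntn5, a contactin that the study uses to mark NA1a, stood at 0.254, 0.193 and 0.271 in NA3 and 1.65, 1.11 and 2.75 in NA1c (log2 difference -2.43 ± 0.42 SE, adjusted p = 8.59e-05), with a mean of 2.38 ± 1.08 in NA1a (SD, n = 3 mice), and at 2000 UMIs per neuron was -1.46, adjusted p = 0.0696, in the same 3 mice and -1.62, adjusted p = 0.0593, over 5 mice. Epha5, an ephrin receptor, stood at 4.39, 6.58 and 5.34 against 14.2, 18 and 12.9 (log2 difference -1.46 ± 0.25 SE, adjusted p = 8.51e-05), and Plxna4, a receptor of semaphorins, at 1.62, 1.72 and 1.81 against 6.55, 5.65 and 5.06 (log2 difference -1.68 ± 0.29 SE, adjusted p = 8.04e-05), both without overlap. Ncam1, which neurons and glia share, was not called, at 5.65, 4.85 and 6.36 against 9.53, 6.53 and 6.78.

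The 12 largest negative differences held Cntn5, Adcy3, Scn8a and Sctr, given above, and genes outside these lists. Dgki, a diacylglycerol kinase, had the lowest, with 0.0310, 0.0965 and 0.0818 UMIs per 10000 in NA3 and 0.607, 1.06 and 1.48 in NA1c (log2 difference -2.70 ± 0.48 SE, adjusted p = 9.93e-05), from 5 and 62 UMIs. Apba2, an adaptor of the amyloid precursor protein, stood at 0.0566, 0.0965 and 0.486 against 2.38, 1.46 and 1.04 (log2 difference -2.65 ± 0.50 SE, adjusted p = 2.09e-04), and at 2000 UMIs per neuron was -2.28, adjusted p = 0.0138, in the same 3 mice and -0.91, adjusted p = 0.425, over 5 mice. Dgki and Apba2 lay below 0.5 in every NA3 profile, so they passed the filter through NA1c alone and had to differ. Nfasc, the neurofascin of the axon initial segment, and Pde10a, a phosphodiesterase, had log2 differences of -2.29 and -2.29, and Samd4, Epha10 and Lmtk3 had -2.49, -2.47 and -2.44. Prom1, the membrane protein prominin, stood at 0.511, 0.628 and 0.989 against 3.76, 3.66 and 3.66 (log2 difference -2.27 ± 0.34 SE, adjusted p = 1.01e-05). All of these lay below NA1c in each mouse.

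Lipid synthesis genes were higher in NA3 in part. Of 19, 15 passed the filter, 1 through NA3 alone, and 7 were higher and 0 lower (median 0.83), against 13.3% and 17.6% of all genes tested. In the NA3 neurons with the lower satellite glia sums, 4 of 14 were higher in the same 3 mice and 3 of 13 over 4 mice. Over all genes, 218 of 4094 and 252 of 3941 were higher in these fits. Scd2, a stearoyl-CoA desaturase, stood at 13.3, 12.9 and 14.5 in NA3 and 2.98, 2.30 and 3.29 in NA1c (log2 difference 2.22 ± 0.26 SE, adjusted p = 2.45e-07), and Hmgcs1, an early enzyme of cholesterol synthesis, at 5.69, 6.72 and 6.53 against 1.97, 2.61 and 2.97 (log2 difference 1.31 ± 0.28 SE, adjusted p = 8.02e-04), the latter with 0.69, adjusted p = 0.241, in the NA3 neurons with the lower sums of the same 3 mice and 0.60, adjusted p = 0.203, over 4 mice. Every NA3 mouse lay above every NA1c mouse in both.

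Transcripts of the mitochondrial genome were higher in NA3 throughout. All 13 protein-coding genes were called higher (median 1.14), against 13.3% of all genes tested. The count was 12 of 13 without replicate 4 and 10 of 13 without replicate 5, beside 648 of 4293 and 383 of 4463 of all genes. The 13 genes summed to 1131, 535 and 618 UMIs per 10000 in NA3 and 414, 190.3 and 329.9 in NA1c. mt-Cytb stood at 119.8, 57.3 and 73.5 against 36.7, 16.0 and 38.4 (log2 difference 1.49 ± 0.26 SE, adjusted p = 7.35e-05). Nuclear genes of oxidative phosphorylation moved less, with 16 of 72 higher and 1 lower (median 0.51), beside 13.3% and 17.6% of all genes, and 10 and 6 higher without replicate 2 and replicate 5. Cytosolic ribosomal proteins gave 41 of 78 higher and 0 lower (median 0.77), and 22 of 78 and 16 of 79 without replicate 2 and replicate 5. Over all genes, 412 of 4453 and 383 of 4463 were higher without these replicates. The ribosomal proteins summed to 652, 420.2 and 418 UMIs per 10000 in NA3 and 339.7, 302 and 253 in NA1c. Rps15a stood at 7.45, 4.80 and 5.61 against 1.56, 1.33 and 1.56 (log2 difference 1.91 ± 0.29 SE, adjusted p = 1.57e-05), and the abundant Rpl41 was not called, at 22.2, 13.7 and 15 against 16.4, 9.94 and 11.9 (log2 difference 0.41 ± 0.25 SE, adjusted p = 0.209). Genes of ribosomal proteins have many processed copies, with which reads may be shared. The share of mitochondrial RNA given above is computed from the mitochondrial genes, so their higher levels restate it. That share and the satellite glia sum moved with the nuclear and ribosomal groups as well, and their part in the result was not tested.

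**Figure D4:**
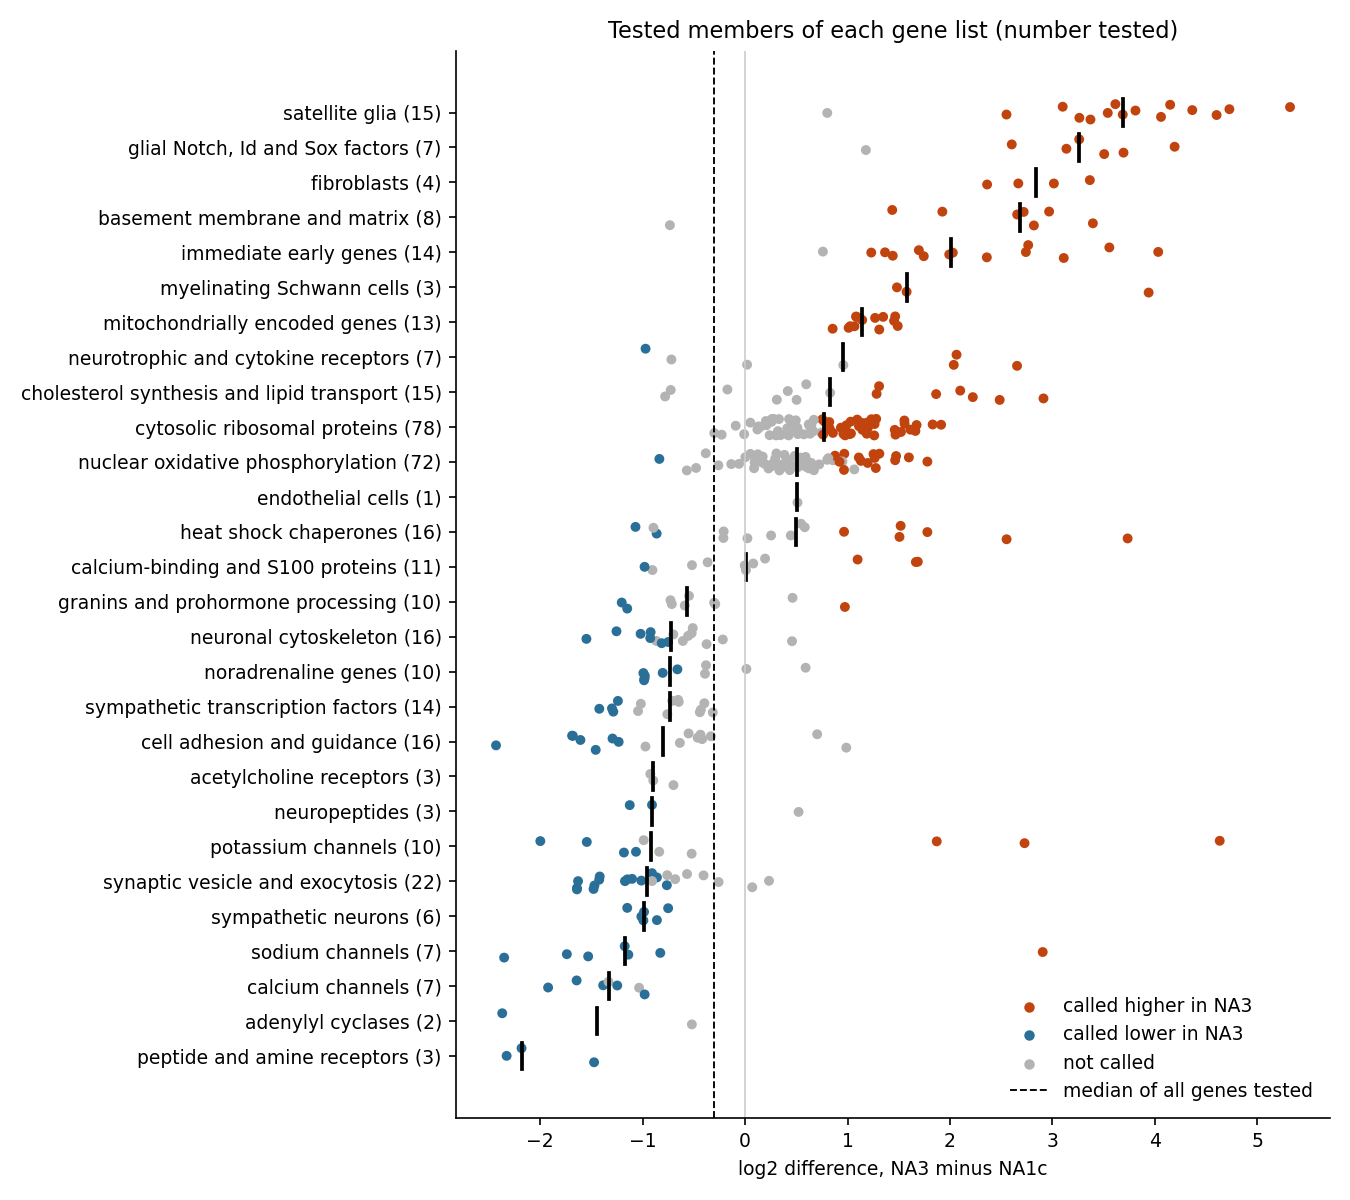
Log2 difference between NA3 and NA1c of each tested member of each gene list, with a point per gene, a bar at the median of the list and the number tested in brackets. Satellite glia, Notch, Id and Sox factors and immediate early genes have medians of 3.69, 3.26 and 2.01, receptors and calcium channels of -2.18 and -1.33, beside -0.30 for all genes tested (dashed line).

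The comparison was repeated with the NA3 neurons at or below the median satellite glia sum of their mouse, in the 4 mice that kept at least 5 of them. These neurons still had median glia sums of 121, 385, 28.6 and 163 UMIs per 10000 in replicates 1, 2, 4 and 5, above the NA1c medians of 28.6, 16.3, 8.30 and 9.95. Among 3941 genes, 252 were higher and 338 lower, and of the 1107 calls still tested 552 held in the same direction and 2 had the opposite direction. Over the same 3 mice, 218 of 4094 genes were higher and 246 lower, and of the 1147 calls still tested 453 held and 1 had the opposite direction. Over 4 mice, Sctr had -3.18, adjusted p = 0.00185, Npy -1.31, adjusted p = 0.00308, Fabp7 3.01, adjusted p = 2.09e-06 and Fos 3.47, adjusted p = 7.07e-07. Removing the satellite glia genes from the total of each neuron left 578 genes higher and 674 lower, and 1207 of the 1264 calls still tested held.

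**Figure D5:**
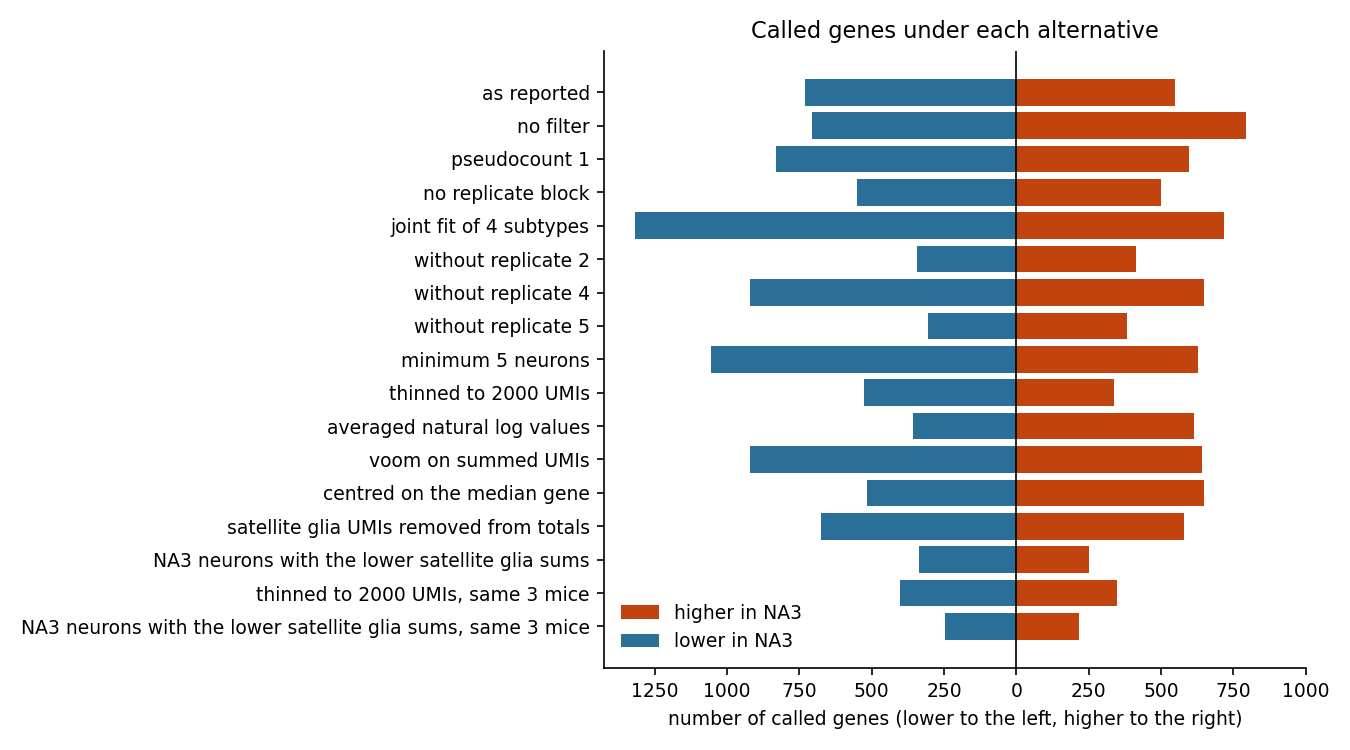
Number of genes called higher in NA3 (to the right) and lower (to the left) as reported and under each alternative. The reported counts are 549 and 729, and the alternatives run from 218 to 793 higher and from 246 to 1318 lower.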

How the data were processed

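Single cells of the stellate ganglia were measured by 10x Genomics droplet RNA sequencing. The authors aligned and counted reads with Cell Ranger 2.1.1 against mm10, kept cells between 500 and 6000 genes, under 20000 UMIs and under 15% mitochondrial RNA, and clustered and named the neurons in Seurat. The deposited expression values are on a natural log scale, ln(UMIs per 10000 + 1), as they stood before integration of the mice, and the deposited metadata give the subtype and mouse name of each neuron. Of 8 mouse names, 5 matched 1 sample each and 3, with 301 neurons, matched none and were not used.

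Values were returned to UMIs per 10000 and averaged per mouse and subtype. UMIs were also recovered, and 100% of nonzero values lay within 0.01 of a whole number. Genes reaching a mean of 0.5 in 3 or more of the 6 profiles were fitted on log2(mean + 0.1) with limma 3.58.1 (R 4.3.3, trended prior), with terms for subtype and mouse, and adjusted by Benjamini-Hochberg at 0.05. The mice pair the subtypes, since both come from the same animal. Correlations of the deviations of the subtypes were 0.153, 0.0704 and 0.103. Data were simulated from the NA1c means, with 200 genes changed 2-fold or 4-fold in random directions. There 18.6% of 2-fold and 85.8% of 4-fold changes were found, and 1.98% of calls were false. The real profiles hold more and larger differences, so these rates do not carry over to them. Medians and sums were compared by exact sign-flip permutation tests, two-sided, over mice. Python 3.11.15 with NumPy 2.4.6, pandas 2.3.3, SciPy 1.17.1 and matplotlib 3.10.9 was used. Gene positions are those of GENCODE on GRCm38.

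Named genes were the study's markers, the 12 largest called differences in each direction, and in each list the 3 most abundant members tested and up to 6 called members. Glul, Hey2, Fosl2 and Btg2 were named after their values were seen. Subtypes, lists and tests were chosen with earlier results of these data known. Alternatives were another pseudocount, no filter, no block, a joint fit of 4 subtypes, a minimum of 5 neurons, thinning to 2000 UMIs, averaged natural logs, voom on summed UMIs, centring, removal of glial UMIs, the NA3 neurons with the lower glial sums, and leaving out each mouse. Thinning took 5 mice and the lower glial sums 4, and both were repeated over the same 3 mice, chosen after seeing the data. The sources used here state no doublet removal, and none was done. All cells in the table are neurons, so free RNA could not be read from a cell type that lacks a gene. The intervals cover counting error only. Whether the cells of a mouse were digested apart is not clear from the labels. The p-values rest on the spread between these libraries, which limma pools over genes. Some genes are not reported here.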

Additional observations from a re-analysis of the deposited data

Results flagged for a closer look

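Over the 5 mice with at least 5 neurons of both subtypes, the summed levels were searched for a mouse that stood apart from the others (Dixon's test at 95%, 26 groups of 5), of which chance marks about 1 in 20. The summed immune markers of NA3 were highest in replicate 2, at 5.13 UMIs per 10000, and those of smooth muscle and pericytes in replicate 1, at 6.26. The summed sympathetic neuron panel of NA1c was highest in replicate 3, at 111. Replicates 1 and 3 were not among the 3 mice compared.

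The viral reporters were outside the comparison. A UMI of tdTomato was found in 4 of 216 NA1c neurons of the matched mice (1.85%, exact binomial 95% interval 0.507% to 4.67%). It was also found in 3 of 92 NA3 neurons (3.26%, 0.678% to 9.23%). Each of these neurons held 1 such UMI. A UMI of GFP was found in 1 of 92 NA3 neurons (1.09%, 0.0275% to 5.91%) and in 0 of 216 NA1c neurons, where the exact interval reaches 1.69%.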

How the results depend on the processing

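Against 1278 genes called (549 higher in NA3, 729 lower), the joint fit of 4 subtypes called 2037 (1318 lower) and the NA3 neurons with the lower glial sums, over 4 mice, 590 (252 higher, 338 lower). Thinning to 2000 UMIs, over 5 mice, left 337 higher, and averaged natural logs 356 lower. Over the same 3 mice as reported, alternatives chosen after seeing the data, thinning gave 750 (349 higher, 401 lower) and the lower glial sums 464 (218 higher, 246 lower). Leaving out each mouse gave 687 to 1567 called, 383 to 648 higher and 304 to 919 lower. Without the replicate block, which the pairing of subtypes within a mouse provides, 1050 genes were called (499 higher, 551 lower). The share of calls that were higher was 43.0% as reported, 55.6% after centring and 63.3% with averaged natural logs. No named gene changed direction with a call under any alternative run. Of all calls, 9 had the opposite direction when thinned over 5 mice, and 3 over the same 3 mice. In the neurons with the lower glial sums 2 and 1 had. Dbh, Th, Snap25, Gal and Chga were among the genes not called with averaged natural logs.

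The difference in genes per neuron turned to -55.7 when thinned (exact p = 0.25) and -58.3 over 5 mice (exact p = 0.0625). That of endothelial markers ran from -0.233 to 0.349 UMIs per 10000 when a mouse was left out and was -0.00485 when thinned. That of smooth muscle markers was 1.57 over 5 mice and 0.129 when thinned. The difference in the share of neurons with a UMI turned to -21.6 percentage points for Dbh and -23.5 for Th when thinned. The cause of these changes was not tested. Admitting all mouse names gave the same 3 mice and no further value. With 3 mice, the smallest exact p is 0.25, and genes at a few UMIs in a subtype are limited by counting.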

Other observations

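Among the most abundant genes outside the lists, which were chosen after their values were seen, the long non-coding RNAs Meg3 and Snhg11 were lower in NA3. Meg3, an imprinted nuclear RNA of neurons, stood at 72.6, 210.2 and 147 UMIs per 10000 in NA3 and 704, 444 and 386 in NA1c (limma log2 difference -1.92 ± 0.33 SE, adjusted p = 8.13e-05). Snhg11 stood at 15, 54.2 and 35.6 in NA3 and 84.6, 100.3 and 90.1 in NA1c (-1.57 ± 0.28 SE, adjusted p = 9.33e-05). Both were lowest in replicate 2 of NA3 and did not overlap between the subtypes. Malat1, a nuclear RNA of nearly every cell type, was not called, at 565, 862 and 799.6 in NA3 and 584, 981 and 738 in NA1c (-0.04 ± 0.31 SE, adjusted p = 0.932). Cst3, a secreted protease inhibitor, was higher in NA3, at 46.0, 33.9 and 41.8 against 7.39, 4.53 and 4.69 (2.88).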
